A study of Mus musculus with 6 samples.

Results

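The 10 genes described here are markers of cardiac fibroblast state, taken from the 23995 genes of the deposited table by symbol. They comprise 4 markers of quiescent, resident fibroblasts (*Pdgfra*, *Tcf21*, *Dpt* and *Pi16*) and 6 of activated fibroblasts (*Postn*, *Cthrc1*, *Cilp*, *Meox1*, *Tnc* and *Fn1*). All 10 passed the filter on low values, which kept genes that reached an FPKM of 1 in 3 or more libraries; FPKM is fragments per kilobase of transcript, scaled to the mapped fragments of the library. Hearts of mice operated on at 10 to 12 weeks of age were sequenced after transverse aortic constriction (TAC), a surgical narrowing of the aorta that loads the left ventricle with pressure. The control group, labelled WT and TAC, held 3 libraries whose names carry flox. The knockout group, labelled LTBP4-CKO (CKO below) and TAC, held 3 libraries from mice with an inducible deletion of *Ltbp4* in cardiomyocytes. The driver of the deletion, the inducing agent, whether control mice carried floxed alleles or Cre, and the time after TAC are not stated in these labels. Both groups had TAC and no unoperated heart was analysed here, so the values compare genotypes and not states before and after loading.

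Resident fibroblasts of the heart carry the receptor PDGFRA and the transcription factor TCF21, which in mouse embryos is needed for the epicardial progenitors of these cells. Under pressure load or after injury they proliferate, lower parts of this programme and secrete periostin, fibronectin, tenascin C and collagens. TGF-beta is a major inducer of the activated state, and some of the LTBP proteins hold its latent form in the matrix.

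All 10 are protein-coding genes, placed here by the deposited loci in mm10 and by exon counts per transcript from GENCODE M21. Of the quiescent markers, *Pdgfra* on chromosome 5 (75152291 to 75198204, plus strand, up to 23 exons), *Tcf21* on chromosome 10 (22817275 to 22820128, minus strand, up to 2 exons), *Dpt* on chromosome 1 (164796732 to 164824266, plus strand, up to 4 exons) and *Pi16* on chromosome 17 (29318882 to 29328902, plus strand, up to 7 exons) were measured. Of the activated markers, *Postn* on chromosome 3 (54361107 to 54391041, plus strand, up to 23 exons), *Cthrc1* on chromosome 15 (39076932 to 39087119, plus strand, up to 4 exons) and *Cilp* on chromosome 9 (65265180 to 65280605, plus strand, up to 10 exons) were measured. The others were *Meox1* on chromosome 11 (101877510 to 101894354, minus strand, up to 3 exons), *Tnc* on chromosome 4 (63959785 to 64047015, minus strand, up to 26 exons) and *Fn1* on chromosome 1 (71585473 to 71653234, minus strand, up to 46 exons).

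Libraries were not all independent. Depth, estimated from the steps of low values, was about 3700000 to 5900000 fragments in the WT libraries, 13900000 in CKO library 1 and 5900000 and 6800000 in CKO libraries 2 and 3. WT libraries 1 and 3 differed by little more than counting noise, and so did CKO libraries 2 and 3. In bins of expression, the scatter within these pairs had 1.21 to 2.06 times the variance that counting gives. For the other 13 pairs it was 3.66 to 9.70 times in the lowest bin and 189 to 522 times in the highest. Each close pair was therefore averaged and counted as 1 sample, which left 2 samples per genotype. Whether samples came from separate animals is not stated, so the p-values measure only the spread between these samples. WT libraries 1 and 3 carried atrial transcripts, with *Myl4*, the atrial myosin light chain gene, at 2629 and 2560 FPKM against 8.11 to 16.0 FPKM in the other 4 libraries. CKO library 1 carried the most cardiomyocyte RNA, with a summed level of 10 cardiomyocyte markers of 68704 FPKM against 6869 to 25392 in the other 5 libraries. *Ltbp4* itself was at 368, 248 and 357 FPKM in WT libraries 1 to 3 and 139, 199 and 195 in CKO libraries 1 to 3, so every CKO library was below every WT library, with a log2 fold change of −0.86 (SE 0.49; limma, Benjamini-Hochberg adjusted p = 0.999).

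Of the 10 markers, 9 had lower estimates in CKO than in WT hearts, and 0 passed the test across all genes (limma, Benjamini-Hochberg adjusted p = 0.999 for each). Across all 12485 genes tested, 0.00801% were called and 45.8% had an estimate below 0. At an unadjusted p under 0.05 stood 2 members, *Cthrc1* and *Cilp*, and 3.0% of all genes. In every CKO library *Dpt*, *Postn*, *Cthrc1* and *Cilp* were lower than in every WT library, 4 of 10 members against 11.5% of all genes tested. Without CKO library 1, without CKO libraries 2 and 3 or without WT library 2, 7 members were lower, against 25.6%, 30.4% and 25.3% of all genes. Without WT libraries 1 and 3 the number stayed at 4, against 26.0% of all genes. With all libraries the 6 other members overlapped between the genotypes, and 0 were higher in every CKO library, against 10.4% of all genes. Without CKO library 1, *Meox1* and *Tnc* were higher, against 27.5% of all genes, and without CKO libraries 2 and 3 *Pdgfra* was, against 32.7%. Estimates below −1 were found for 5 members, *Tcf21*, *Dpt*, *Postn*, *Cthrc1* and *Cilp*, against 3.54% of all genes, and estimates above 1 for 0 members, against 2.68%. In these bulk samples fewer fibroblasts and less marker RNA per fibroblast cannot be told apart. WT libraries 1 and 3 also carried atrial transcripts, and the part of the tissue sampled in these estimates was not tested.

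**Figure D1:**
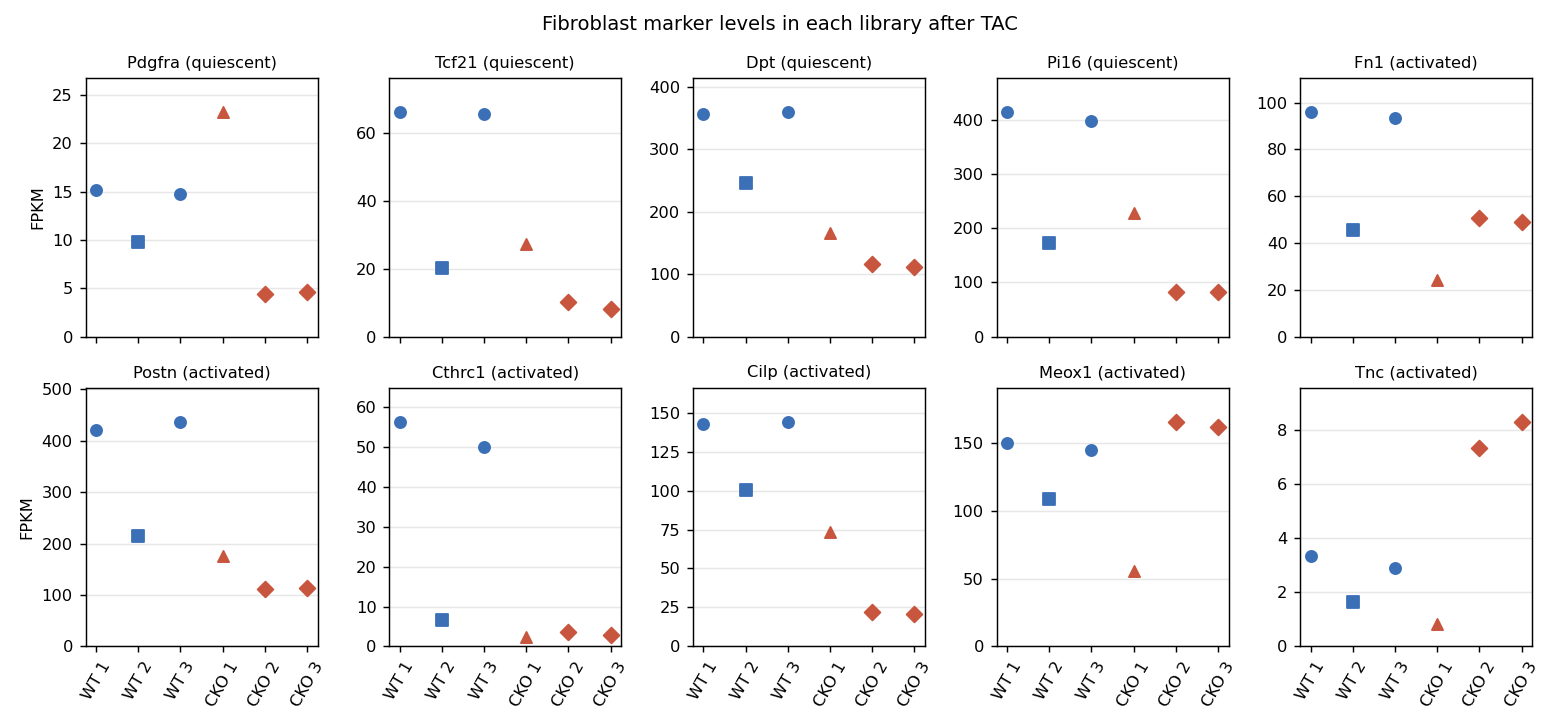
FPKM of each marker (vertical axes, from 0) in the 3 WT (blue) and 3 CKO (red) libraries; equal symbols mark libraries averaged as 1 sample. Dpt, Postn, Cthrc1 and Cilp lie below every WT library in all CKO libraries. Cthrc1, Meox1, Tnc and Fn1 are lowest in CKO library 1.

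Among the quiescent markers, *Dpt* had the tightest values. It encodes dermatopontin, a small matrix protein that binds decorin and helps collagen fibrils assemble. *Dpt* was at 356, 245 and 359 FPKM in WT libraries 1 to 3 and at 166, 116 and 111 FPKM in CKO libraries 1 to 3. The genotypes did not overlap, and the CKO mean of 140 ± 37.1 FPKM (SD, n = 2) was 46.3% of the WT mean of 301 ± 79.5 FPKM (SD, n = 2). Its log2 fold change on the log2(FPKM + 1) scale was −1.10 (SE 0.49, 95% interval −2.28 to 0.07).

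*Pi16* encodes a secreted peptidase inhibitor that marks an adventitial fibroblast population found in many mouse tissues. It was at 414, 173 and 397 FPKM in WT and at 227, 82.7 and 81.8 FPKM in CKO libraries 1 to 3. CKO library 1 thus lay above WT library 2, and the genotypes overlapped. The log2 fold change was −0.95 (SE 0.68), on a CKO mean that was 53.5% of the WT mean. It was −0.33 without WT libraries 1 and 3 and −0.22 without CKO libraries 2 and 3, and −1.56 without WT library 2 and −1.67 without CKO library 1.

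*Tcf21* was at 66.2, 20.2 and 65.5 FPKM in WT and at 27.3, 10.3 and 8.01 FPKM in CKO. Its highest values were in the WT libraries with atrial transcripts, 3.26 times WT library 2, and CKO library 1 again exceeded WT library 2. The log2 fold change was −1.15 (SE 0.70). It was −0.32 without WT libraries 1 and 3, −0.41 without CKO libraries 2 and 3, −1.98 without WT library 2 and −1.89 without CKO library 1.

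*Pdgfra*, which encodes a receptor for platelet-derived growth factors, was split within the CKO group. It was at 15.2, 9.78 and 14.8 FPKM in WT and at 23.2, 4.39 and 4.56 FPKM in CKO. CKO library 1 was above and CKO libraries 2 and 3 were below every WT library, so the 2 CKO samples lay on opposite sides of the control group. The CKO mean was 112% of the WT mean while the log2 fold change was −0.19 (SE 0.70), and the log2 estimate was 0.095 without WT libraries 1 and 3 and 0.88 without CKO libraries 2 and 3. Without CKO library 1 it was −1.26.

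The activated markers showed 2 patterns within the CKO group, a division made after their values were seen. *Postn*, *Cthrc1* and *Cilp* had low values in both CKO samples. *Meox1*, *Tnc* and *Fn1* had their lowest value in CKO library 1 and reached or exceeded WT library 2 in CKO libraries 2 and 3.

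*Postn* encodes periostin, a matricellular protein that fibroblasts of the adult mouse heart make when activated. It was at 422, 214 and 437 FPKM in WT and at 177, 112 and 113 FPKM in CKO. The CKO mean was 45.0% of the WT mean, with a log2 fold change of −1.10 (SE 0.55, 95% interval −2.42 to 0.22), or −0.60 without WT libraries 1 and 3 and −1.60 without WT library 2. The value nearest to the CKO libraries was that of WT library 2, which lacked the atrial signal.

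*Cthrc1*, which encodes a secreted collagen triple helix repeat protein and marks reparative fibroblasts in mouse infarcts, had the largest estimate of the 10. It was at 56.3, 6.70 and 50.1 FPKM in WT and at 2.26, 3.60 and 2.86 FPKM in CKO. WT libraries 1 and 3 were 7.94 times WT library 2, the largest difference of any member within the WT group. The estimate on the log2 scale was −2.46 (SE 0.85), its 95% interval ran from −4.51 to −0.41, and the estimate was −1.05 without WT libraries 1 and 3 and −3.87 without WT library 2. Only about 22 fragments lay behind the value of WT library 2, with a 95% Poisson interval of 4.20 to 10.1 FPKM. For CKO libraries 1 to 3 the fragments were about 27, 19 and 17, with intervals of 1.49 to 3.28, 2.17 to 5.62 and 1.67 to 4.58 FPKM, so WT library 2 and CKO libraries 2 and 3 overlapped in counting error. These intervals cover counting error only.

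*Cilp* encodes cartilage intermediate layer protein, a matrix protein that binds TGF-beta1. It was at 142, 100.3 and 144 FPKM in WT and at 73.7, 22.0 and 20.6 FPKM in CKO. All CKO libraries were below all WT libraries, and the CKO mean of 47.5 ± 37.0 FPKM (SD, n = 2) was 39.0% of the WT mean of 122 ± 30.3 FPKM (SD, n = 2). The estimate on the log2 scale was −1.57 (SE 0.63) with a 95% interval from −3.07 to −0.06. It was −1.31 without WT libraries 1 and 3 and −0.69 without CKO libraries 2 and 3, and −2.44 without CKO library 1.

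*Meox1* encodes a homeobox transcription factor that promotes fibroblast activation in mouse hearts under pressure overload. It was at 150.1, 109 and 145 FPKM in WT and at 55.5, 166 and 162 FPKM in CKO. CKO libraries 2 and 3 were above every WT library and CKO library 1 was below every one. The log2 fold change was −0.40 (SE 0.60) and turned to 0.37 without CKO library 1. It was −1.18 without CKO libraries 2 and 3 and −0.62 without WT library 2.

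*Tnc* encodes tenascin C, a matrix glycoprotein that is scarce in the healthy adult heart and appears at sites of remodelling. It was at 3.33, 1.64 and 2.91 FPKM in WT and at 0.839, 7.36 and 8.30 FPKM in CKO. The CKO libraries again lay on both sides of the WT range, with libraries 2 and 3 at 9.33 times library 1. About 79 fragments lay behind the value of CKO library 1, with a 95% Poisson interval of 0.664 to 1.05 FPKM, and 290 behind that of CKO library 2, with an interval of 6.53 to 8.25 FPKM. *Tnc* had the only estimate above 0 among the 10, a log2 fold change of 0.29 (SE 0.76), which was 1.42 without CKO library 1 and −0.84 without CKO libraries 2 and 3.

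*Fn1* encodes fibronectin, which is made by fibroblasts, endothelial cells and macrophages and on which other matrix proteins assemble. It was at 96.0, 45.4 and 93.3 FPKM in WT and at 24.4, 50.7 and 49.0 FPKM in CKO. CKO libraries 2 and 3 were slightly above WT library 2, and CKO library 1 was below all others. The log2 fold change was −0.89 (SE 0.54), and it was −0.39 without CKO library 1 and −0.37 without WT libraries 1 and 3, but −1.41 without WT library 2 and −1.39 without CKO libraries 2 and 3.

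**Figure D2:**
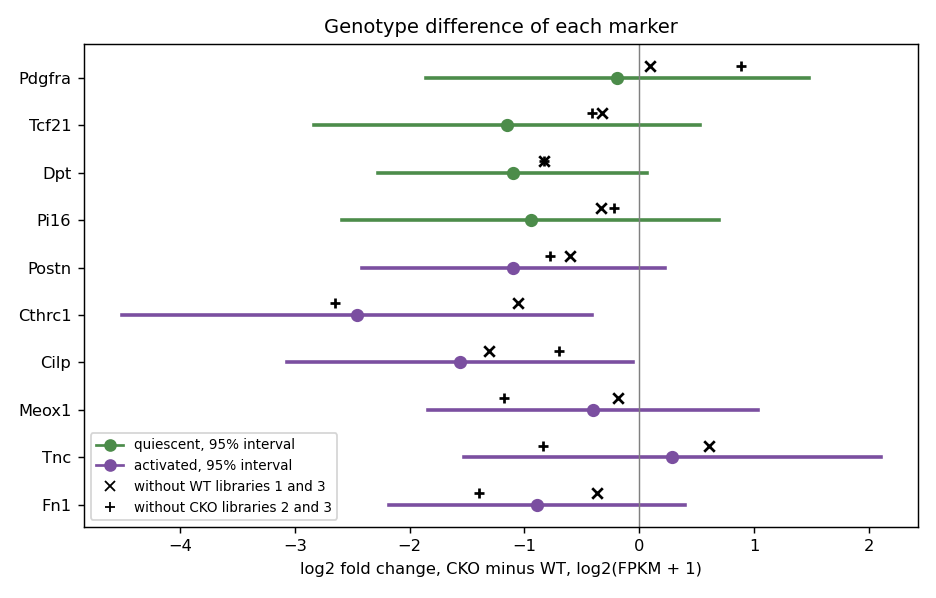
Log2 fold change (horizontal axis, CKO minus WT on log2(FPKM + 1)) of each marker from the 4 samples, with the 95% interval of the limma fit (bars) for quiescent (green) and activated (purple) markers. Crosses and plus signs give the estimate without WT libraries 1 and 3 and without CKO libraries 2 and 3; both lie above 0 for Pdgfra, and they lie on both sides of 0 for Tnc.

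Promoter sequences of *Dpt*, *Cilp*, *Postn* and *Tnc* are shown because the first 3 were lower in every CKO library and *Tnc* had the highest values in CKO libraries 2 and 3. RefSeq promoters (GRCm38.p6, the assembly of mm10) were matched for 7 of the 10 members, not for *Cthrc1*, *Meox1* and *Fn1*. Each sequence is the 250 bases before an annotated start, 5′ to 3′ on the gene's strand. They are chr1:164796413-164796662 (*Dpt*, plus strand), chr9:65264930-65265179 (*Cilp*, plus), chr3:54360857-54361106 (*Postn*, plus) and chr4:64047016-64047265 (*Tnc*, minus). *Postn* and *Tnc* have 2 starts, and the one at the edge of the deposited locus is shown. Capitals mark CAGCTG, an E-box form, in *Dpt* and *Cilp* and TATAAA in *Postn* and *Tnc*.
Dpt: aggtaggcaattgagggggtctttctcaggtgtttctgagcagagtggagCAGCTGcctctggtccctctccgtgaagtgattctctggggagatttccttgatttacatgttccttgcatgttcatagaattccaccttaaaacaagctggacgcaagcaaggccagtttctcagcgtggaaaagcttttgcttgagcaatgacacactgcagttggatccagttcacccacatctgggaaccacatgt
Cilp: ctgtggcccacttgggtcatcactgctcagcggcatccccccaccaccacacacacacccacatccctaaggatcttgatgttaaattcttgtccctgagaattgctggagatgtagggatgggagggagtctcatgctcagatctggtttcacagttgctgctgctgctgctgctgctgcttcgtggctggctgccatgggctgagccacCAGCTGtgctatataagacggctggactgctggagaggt
Postn: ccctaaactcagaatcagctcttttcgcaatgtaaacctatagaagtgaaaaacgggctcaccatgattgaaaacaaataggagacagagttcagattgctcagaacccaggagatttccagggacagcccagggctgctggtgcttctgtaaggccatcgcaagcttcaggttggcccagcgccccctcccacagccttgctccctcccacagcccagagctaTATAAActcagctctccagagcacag
Tnc: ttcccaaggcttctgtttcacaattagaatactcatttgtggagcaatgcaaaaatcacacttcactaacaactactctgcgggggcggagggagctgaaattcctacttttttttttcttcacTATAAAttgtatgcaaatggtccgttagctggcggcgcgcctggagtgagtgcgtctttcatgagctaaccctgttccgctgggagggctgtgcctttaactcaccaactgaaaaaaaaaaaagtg
CAGCTG was found in 2 of the 7 members, *Dpt* at 200 and *Cilp* at 39 bases before the start, and in 13.0% of 32851 promoters of this length. TATAAA was found in *Postn*, 26 bases before the start, and in *Tnc*, 126 bases before it, and in 12.4% of all promoters. Both strands were searched for each motif. The general E-box CANNTG, which includes the first motif, was in 4 members and 66.2% of all promoters. The SMAD element CAGACA was in 1 member, at the second *Tnc* start, and in 17.1% of all. The AP-1 element TGANTCA was in 0 members and 6.75% of all promoters. The TEAD element GGAATG was in 0 members and 12.6% of all promoters. These matches describe the sequence and do not show binding.

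The class medians were close, while the order of the classes differed between libraries. The median log2 fold change was −1.03 for the 4 quiescent and −0.995 for the 6 activated markers, beside 0.04 over all genes tested. Without WT libraries 1 and 3 the medians were −0.33 and −0.48, and without CKO libraries 2 and 3 they were −0.32 and −1.01. Without WT library 2 they were −1.47 and −1.51, and without CKO library 1 they were −1.53 and −0.91. Within WT, the mean log2(FPKM + 1) of the activated markers stood below that of the quiescent markers by nearly the same amount in each library, with differences of −0.54, −0.63 and −0.57 in libraries 1 to 3. In CKO library 1 the difference was −1.70, and in CKO libraries 2 and 3 it was 0.15 and 0.20. The 2 CKO samples thus lay on opposite sides of all WT libraries. The mean difference was −0.59 ± 0.05 (SD, n = 2) in WT and −0.76 ± 1.32 (SD, n = 2) in CKO, so the genotype means differed by −0.17, less than the spread between the CKO samples. That value was 0.13 with the 6 libraries taken as separate samples, 0.76 without CKO library 1 and −1.11 without CKO libraries 2 and 3, so no direction could be given.

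**Figure D3:**
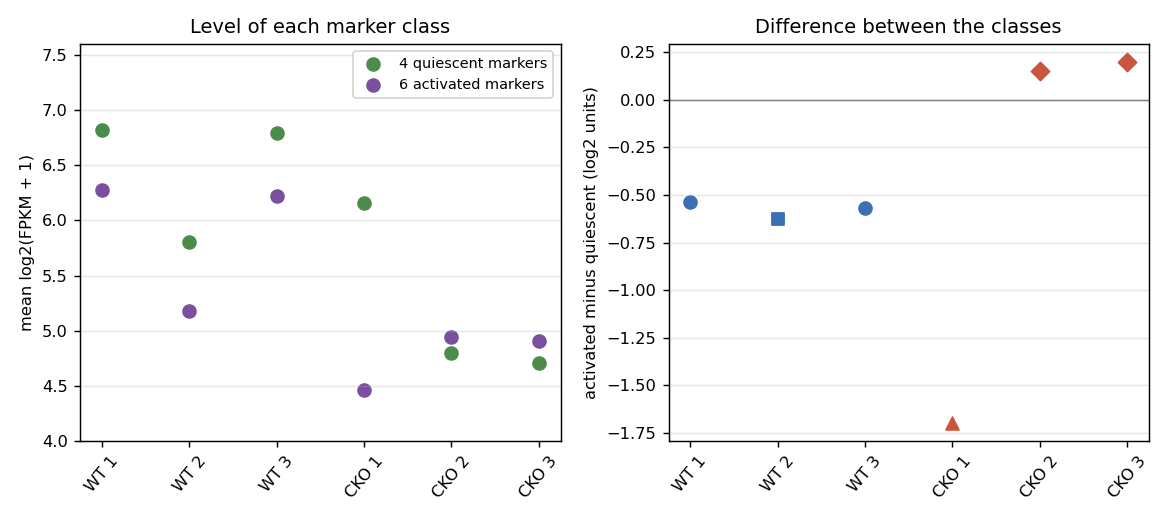
Left, mean log2(FPKM + 1) of the 4 quiescent (green) and 6 activated (purple) markers in each library; right, activated minus quiescent in log2 units, with equal symbols for libraries averaged as 1 sample. The WT libraries lie between −0.63 and −0.54, CKO library 1 at −1.70 and CKO libraries 2 and 3 at 0.15 and 0.20.

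The contrast within the CKO group ran by gene. From CKO library 1 to the mean of CKO libraries 2 and 3, all 4 quiescent markers were lower, with a median log2 difference of −1.47, led by *Pdgfra* at −2.15 and followed by *Tcf21* at −1.48, *Pi16* at −1.45 and *Dpt* at −0.54. Of the activated markers, *Cilp* (−1.74) and *Postn* (−0.65) went the same way. *Tnc* at 2.26, *Meox1* at 1.54, *Fn1* at 1.00 and *Cthrc1* at 0.38 were higher. Over all genes tested the median of this difference was −0.04, with 47.9% of genes above 0, 11.8% below −1 and 8.90% above 1. Within WT, all 10 markers were higher in libraries 1 and 3 than in library 2, against 50.1% of all genes. Their median difference was 0.82, against 0.00 over all genes, with *Cthrc1* at 2.82, *Tcf21* at 1.66 and *Pi16* at 1.23. Both differences compare 2 samples of 1 genotype, with no replicate check.

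In level, which FPKM gives per length, the order of the members differed between the CKO samples. In WT the highest were *Postn*, *Dpt* and *Pi16*, whose means were 322, 301 and 289 FPKM with overlapping libraries, followed by *Meox1* at 128 and *Cilp* at 122 FPKM, which also overlapped with each other. *Fn1* (70.0), *Tcf21* (43.0) and *Cthrc1* (29.9) formed a chain of overlapping neighbours, *Cthrc1* also overlapped with *Pdgfra* (12.4 FPKM), and *Tnc* at 2.38 FPKM was separate and lowest. In CKO, *Pi16*, *Postn* and *Dpt* were at 155, 145 and 140 FPKM and *Cthrc1* was last at 2.74 FPKM. These means rest on CKO library 1, since in CKO libraries 2 and 3 *Meox1* was the most abundant member, at 166 and 162 FPKM. In CKO every neighbour in the order overlapped with the next.

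A wider set of fibroblast genes was described by list. Of 25 resident fibroblast genes, all tested, 21 had lower estimates in CKO against 45.8% of all genes, 6 were lower in every CKO library against 11.5% of all genes tested, 0 passed and the median log2 fold change was −0.61. The largest estimates were those of *Penk*, the proenkephalin gene (−1.55), *Serpinf1*, which encodes an anti-angiogenic serpin (−1.53), *Inmt*, a methyltransferase gene (−1.35), and *Mfap5*, a microfibril gene (−1.27). Across the CKO samples the list moved as the quiescent markers did. Of its 25 genes, 22 were lower in CKO libraries 2 and 3 than in library 1, by a median of −1.36. Over all genes tested, 47.9% were higher there and the median was −0.04. *Inmt* was at 80.8 FPKM in library 1 and at 4.73 and 3.80 in libraries 2 and 3.

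Of 28 tested activated fibroblast genes outside the 6 members, 27 had lower estimates in CKO, against 45.8% of all genes tested, and 14 were lower in every CKO library, against 11.5%. Of these genes 0 passed and the median was −0.97. The largest estimates were those of *Sfrp2*, a secreted Wnt modulator gene (−2.72), *Ltbp2*, a relative of *Ltbp4* (−2.38), *Nox4*, an NADPH oxidase gene (−2.06), and *Timp1*, a metalloproteinase inhibitor gene (−1.85). *Sfrp2* was at 148, 16.9 and 153 FPKM in WT and at 6.32, 7.63 and 7.29 in CKO, an order of libraries like that of *Cthrc1*. *Timp1* was at 301, 112 and 277 FPKM in WT and at 49.2, 50.2 and 48.0 in CKO, with the CKO samples nearly equal. Between the CKO samples the list was mixed, with 17 of 28 genes lower in libraries 2 and 3 and a median of −0.22. Over all genes tested, 47.9% were higher there, so this count was near the share of all genes.

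Matrifibrocyte genes mark the cartilage-like fibroblasts of mature mouse scars, of which *Cilp* is also known as a marker. All 8 tested had lower estimates, against 45.8% of all genes, and the median was −1.84. The largest were those of *Comp*, cartilage oligomeric matrix protein (−3.63), 1500015O10Rik, whose product is a secreted peptide precursor (−3.44), *Fmod*, fibromodulin (−3.16), and *Chad*, chondroadherin (−1.85). *Comp* was at 672, 132 and 673 FPKM in WT and at 22.4, 23.7 and 24.0 in CKO. In this list 5 of 8 genes were lower in every CKO library, against 11.5% of all genes, and 0 passed.

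Contractile genes that myofibroblasts share with smooth muscle differed by a median of −0.61 between the genotypes. Of the 7 tested, 6 had estimates below 0, against 45.8% of all genes, and 0 were lower in every CKO library, against 11.5%. All 7 were higher in CKO libraries 2 and 3 than in library 1, by a median of 2.01, against 47.9% of all genes. *Tagln*, the transgelin gene, was at 231, 485 and 225 FPKM in WT and at 56.7, 439 and 423 in CKO, and *Myl9*, a smooth muscle myosin light chain gene, was at 300, 480 and 279 FPKM in WT and at 97.6, 390.3 and 404 in CKO. In both genes WT library 2 was above WT libraries 1 and 3, the reverse of the 10 markers. CKO library 1 was lowest, as it was for *Cthrc1*, *Meox1*, *Tnc* and *Fn1*.

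**Figure D4:**
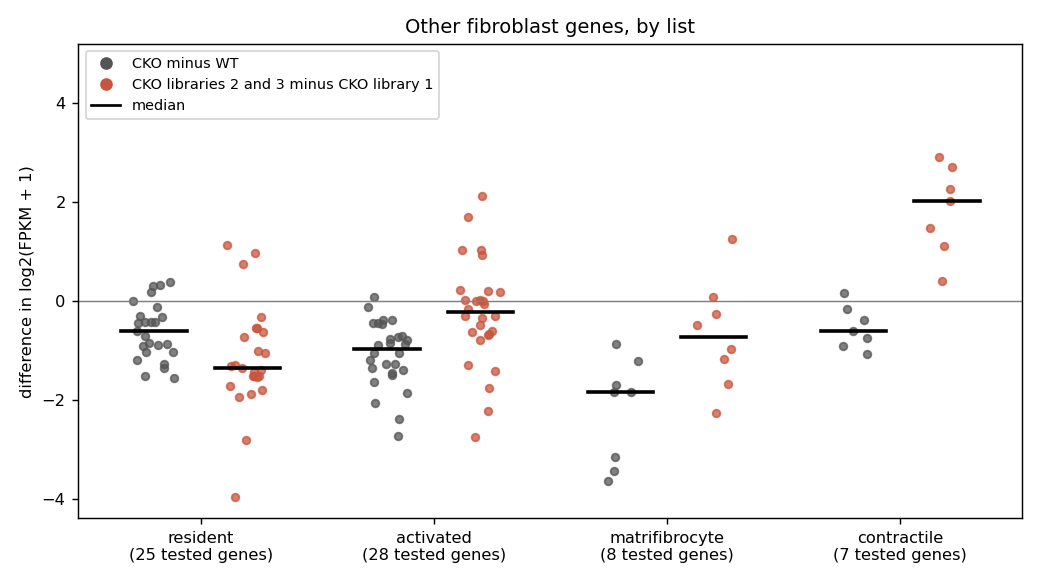
Each point is a tested gene of a fibroblast list, with its difference in log2(FPKM + 1) between genotypes (grey) and between CKO libraries 2 and 3 and CKO library 1 (red); black bars are medians. The red medians are −1.36, −0.22, −0.73 and 2.01 from resident to contractile genes, whereas the grey medians are all below 0.

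The genes closest to each class profile over the 4 samples were found by the root mean square difference of centred log2 values. For the quiescent class these were *Antxr1*, *Art4*, *Gsn* and *Hsd11b1*, at differences of 0.03 to 0.05. *Gsn*, the gelsolin gene, was at 2080, 1092 and 2057 FPKM in WT and at 1386, 480 and 485 in CKO. For the activated class they were *Gng2*, *Slc7a3*, *Arl11* and *Aebp1*, at 0.04 to 0.08. The activated profile is a mean of members that went opposite ways between the CKO samples. A close match over 4 samples does not show shared regulation. *Aebp1*, which encodes a collagen-binding matrix protein, was at 53.0, 27.5 and 48.9 FPKM in WT and at 15.6, 21.0 and 21.0 in CKO.

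Markers of other cell types also differed between the libraries, not all in the same direction. Their part in the fibroblast marker values was not tested. Summed over 13 macrophage and monocyte markers, the level was 914 to 1914 FPKM in WT and 571 to 760 FPKM in CKO, and 12 of 13 genes were lower in every CKO library, against 11.5% of all genes, among them *Lyz2* (−1.15) and *C1qa* (−0.80). The 7 adipocyte markers summed to 225 to 627 FPKM in WT and 1.55 to 22.7 in CKO, with all 6 tested lower in every CKO library against the same 11.5%, *Cfd* at −5.66 and *Retn* at −3.92, and *Lep* at 0 in all libraries. The 8 atrial markers summed to 37561, 1589 and 37649 FPKM in WT and 13936, 290 and 280 FPKM in CKO. Much of the sum in CKO library 1 was *Nppa*, which encodes atrial natriuretic peptide and is also made by stressed ventricles, at 13882 FPKM. The cardiomyocyte markers had higher estimates in all 10 genes, with *Myl2* at 2.23 and *Myl3* at 2.41, while 45.8% of all genes had an estimate below 0. Only 1 of the 10, *Myl3*, was higher in every CKO library, against 10.4% of all genes. The 10 markers summed to 6869, 25392 and 6896 FPKM in WT and to 68704, 21904 and 21625 FPKM in CKO libraries 1 to 3. The endothelial sum was 12101 to 15806 FPKM in WT, 8146 in CKO library 1 and 18565 and 18588 in CKO libraries 2 and 3. Most of each sum was 1 gene, *Fabp4*, at 10563, 13804 and 11397 FPKM in WT and at 6976.5, 16206 and 16256 in CKO. Of the 10 endothelial genes, 4 were higher in every CKO library, library 1 included, against 10.4% of all genes, and 0 were lower in every one, against 11.5%. Estimates below 0 were found for 4 of the 10, against 45.8% of all genes, and the list median was 0.11. Sums for the smooth muscle and pericyte list were 639 to 959 FPKM in WT and 526 to 1467 in CKO, where 1087 FPKM of the highest came from *Des*, a gene that cardiomyocytes also express. Epicardial and mesothelial markers summed to 27.9 to 34.7 FPKM in WT and 15.2 to 32.3 in CKO. This sum held genes that went opposite ways. Of the 5 tested, 3 were lower in every CKO library, against 11.5% of all genes, and 1 was higher in every one, against 10.4%. Markers of valve interstitial and chondrogenic cells summed to 26.5 to 28.1 FPKM in WT and 6.39 to 23.4 in CKO. Those of Schwann cells summed to 45.2 to 68.9 and 15.7 to 35.6, and those of lymphocytes to 6.38 to 14.6 and 6.82 to 7.76. No list member other than *Lep* was at 0 in all libraries.

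The record numbers of the libraries form 2 sets. Within the first, which holds WT libraries 1 and 2 and CKO libraries 1 and 2, the medians were −1.02 for quiescent and −0.99 for activated markers. Within the second, which holds WT library 3 and CKO library 3 and is not independent of the first, they were −1.98 and −1.43, with no test.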

How the data were processed

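Per the labels' protocols, total RNA of mouse hearts (Trizol) was made into Illumina TruSeq libraries. The values deposited by the authors are FPKM, with 1 column per library, per the file headers. Cufflinks and mm10 are named in the submitters' processing notes; aligner, annotation and filters are not given in the sources used. The kit is not stated to keep strand, so *Tnc*, *Fn1*, *Pi16* and *Pdgfra*, whose exons overlap annotated antisense genes, could hold antisense reads.

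Columns were mapped by the short names in the descriptions. The table lists 23995 genes, 27 of them under symbols turned into dates, and 1 line held no value. Start positions were raised by 1. Depth was recovered from low values of genes with 1 annotated transcript (GENCODE M21) over 1000 bases, of which 76.7% to 82.2% fell within 0.15 of a whole fragment number; depths and fragments are approximate, and fragments were counted over the longest coding transcript. Since FPKM values are not counts, no count model was used.

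Close library pairs were averaged as FPKM. The test used the 12485 genes that reached FPKM 1 in 3 or more libraries, on log2(FPKM + 1), a scale that understates changes of low genes. It was limma 3.58.1 in R 4.3.3 (lmFit, eBayes with trend and robust), two-sided, Benjamini-Hochberg adjustment over all genes and a threshold of 0.05. The fit was tested on simulated data with known changes, whose spread between samples was below that of every member here. That test therefore does not show how the fit performs at the spread of these markers. Class values are descriptions with no test. Promoters are from RefSeq, GRCm38.p6.

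The members, the lists and the averaging of close pairs were chosen with earlier results of these data known. Genes named are the members, *Ltbp4* and the 4 largest estimates of the resident, activated and matrifibrocyte lists. To these come the 2 most abundant genes of the contractile, macrophage, adipocyte, cardiomyocyte and atrial lists and the 4 genes nearest to each class profile. The rule also took the 2 most abundant genes of the remaining lists, which apart from *Des* and *Fabp4* are given as sums only. *Des*, *Fabp4* and *Lep* were named after their values were seen. Alternatives were other pseudocounts, filters, scalings, sample definitions, record sets and left-out libraries.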

Additional observations from a re-analysis of the deposited data

How the results depend on the processing

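Of 200 estimates of the 10 members under 20 alternatives, 194 kept their direction, and 0 passed the test where one could be made (the second record set allows none). The lowest adjusted p was 0.0503, for *Cthrc1* without WT library 2 (limma, Benjamini-Hochberg; range over its alternatives 0.0503 to 1.0). Many alternatives could hardly turn a direction, so the count of 194 says little about stability. Other filters and the fit without trend left each member's estimate unchanged, and the fits of 6 libraries shared 1 estimate. Leaving out 1 library of a close pair changed estimates little. All 6 turns came where a whole sample was left out. Direction turned for *Pdgfra* without WT libraries 1 and 3 (0.095) and without CKO libraries 2 and 3 (0.88). For *Meox1* it turned in the second record set (0.16) and without CKO library 1 (0.37). For *Tnc* it turned without WT library 2 (−0.031) and without CKO libraries 2 and 3 (−0.84). Of the other genes named, *Des*, *Fabp4* and *Lep* left out, direction turned for *Inmt* (0.63) and *Nppa* (1.03) without CKO libraries 2 and 3. It also turned for *Nppa* without WT libraries 1 and 3 (0.25). For *Myl9* and *Tagln* it turned in the second record set (0.54 and 0.91) and without CKO library 1 (0.091 and 0.37). Leaving out 1 library at a time gave −0.62 to 0.37 for *Meox1*, −0.031 to 1.42 for *Tnc*, −0.94 to 0.091 for *Myl9* and −1.09 to 0.37 for *Tagln*. *Cfd* passed without CKO libraries 2 and 3, and *Comp*, *Myl4* and *Sfrp2* without WT library 2 (limma, adjusted p from 0.00636 to 0.037). The cause was not tested.

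The count of all genes called was 1, and it was 9 without a filter, 2 with 6 separate libraries, 12 without WT library 2 and 5 without CKO libraries 2 and 3. The number of members lower in every CKO library was 4 (11.5% of all genes), also 4 without WT libraries 1 and 3 (26.0% of all genes), and 7 without CKO library 1, without CKO libraries 2 and 3 or without WT library 2, where 25.6%, 30.4% and 25.3% of all genes were. These counts were added after seeing the data. Leaving out each library in turn gave 1 to 12 genes called, 8 to 10 members with lower estimates, quiescent medians of −1.53 to −1.01, activated medians of −0.91 to −1.51 and class differences of −0.21 to 0.76. In the second record set alone the quiescent median was −1.98 and the class difference 0.77.

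Whether the same replicate numbers pair the libraries could not be told from the values. Deviations of same-numbered libraries correlated at 0.116, 0.125 and −0.098 across genes, and those of other libraries at −0.127 to 0.113. Because each genotype holds a close pair, the size of these values is nearly fixed, with or without pairing. With a replicate block on 6 libraries, 1 gene was called and the medians were −1.34 and −1.14. With 2 samples per genotype the 95% intervals of the members are wide, and *Cthrc1* and *Tnc* rest on few fragments.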
